A study of Mus musculus with 34 samples.

Results

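Livers of Pdgf-c transgenic mice were compared between week 48 and week 20, both on a basal diet. The comparison took in 10 of the 34 arrays of the series, chosen by their titles: 5 from transgenic liver at week 48, other than the tumor samples, and 5 from transgenic liver at week 20. Every mouse of both groups carried the transgene and received no peretinoin, an acyclic retinoid that the series tests in other groups. The study's design fed the diets from weaning at week 4, and chose week 20 for hepatic fibrosis and week 48 for hepatic tumors, and the week 48 samples used here are those not labelled as tumor. Wild-type C57/B6 liver on the basal diet (5 arrays at week 20 and 4 at week 48) and transgenic liver on a diet with 0.06% peretinoin (5 arrays at each age) gave the same ages for side-by-side values. The labels do not give the promoter of the transgene, the sex of the mice, or the hour at which tissue was taken, and they give the strain of the transgenic mice only as Pdgf-c Tg. They do not say that each array came from a separate animal, so p-values measure the spread between these samples, which may be partly technical.

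PDGF-C is a growth factor that binds PDGF receptor alpha, which hepatic stellate cells and fibroblasts carry, and it drives these cells to divide and to lay down matrix. In the published line of this name the transgene is expressed from a hepatocyte promoter, and fibrosis, fat and tumors follow one another with age. Much of the liver transcriptome also follows the circadian clock, in which Arntl with Clock or Npas2 switches on the Per and Cry genes and the output factors Dbp, Tef and Hlf, and the Per and Cry proteins then block Arntl. The level of such a gene in one sample therefore depends on the hour of sampling as well as on the state of the tissue.

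Values are MAS5 array signals, on a linear scale, set by the authors' processing to the same trimmed mean of about 500 on every array. Changes are differences of log2(signal + 16), week 48 minus week 20, with the standard error (SE) of limma's model, and called genes are those with an adjusted p (Benjamini-Hochberg, over all 13099 genes tested) below 0.05. Adding 16 makes the change of dim genes look smaller. The number of arrays limits the precision. Hepatocyte markers matched the tissue label: Alb, serum albumin, gave 23368, 28917, 30239.8, 21729 and 26931 at week 20 and 24788, 23459, 22171, 25226 and 26794 at week 48. Of the 8 hepatocyte markers, 0 passed the test in either direction, beside 15.7% of all genes called. In whole liver, fewer cells of a type and less RNA per cell cannot be told apart. The ratio of the 3' to the 5' probe set of Actb, a sign of RNA length, was 1.62 to 1.74 at week 20 and 1.30 to 1.57 at week 48, without overlap, and its part in the age changes was not tested. In wild-type liver that ratio was also higher at week 20 (1.81 to 2.16) than at week 48 (1.39 to 1.71). In peretinoin-fed liver it was 1.70 to 3.31 at week 20, the widest and highest range of the 7 groups, and 1.42 to 1.94 at week 48. The 3' to 5' ratio of Gapdh in basal transgenic liver was 0.739 to 0.780 at week 20 and 0.723 to 0.753 at week 48, with overlap. Week 48 replicate 4 stood above the median of all arrays by 7.80 log2 units over 12 skeletal muscle markers and by 5.43 over 12 pancreatic acinar markers, and week 20 replicate 5 by 5.12 over the pancreatic markers; week 48 replicate 1 stood 2.16 above over the muscle markers. Each count was also run without the 6 arrays of any group that stood at least 3 log2 units above, and that value is given where it changes a result.

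With age, 2063 of 13099 genes changed (15.7%), 785 higher (5.99% of genes tested) and 1278 lower (9.76%). Of these, 299 changed by at least 2-fold (2.28%), 141 higher and 158 lower. At an unadjusted p under 0.05 there were 3864 genes. The 5 and 5 signals did not overlap for 1873 genes (14.3%), and 1375 of those were called. The balance of directions depended on the scaling. The median of all genes was -0.04 as deposited, and 38.1% of calls were higher. With each array centred on its median, the median of all genes was 0.08 and 68.7% of 1746 calls were higher; with quantile normalisation 44.3% of 2199 were. Small changes are therefore read relative to that shift of the whole array.

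**Figure D1:**
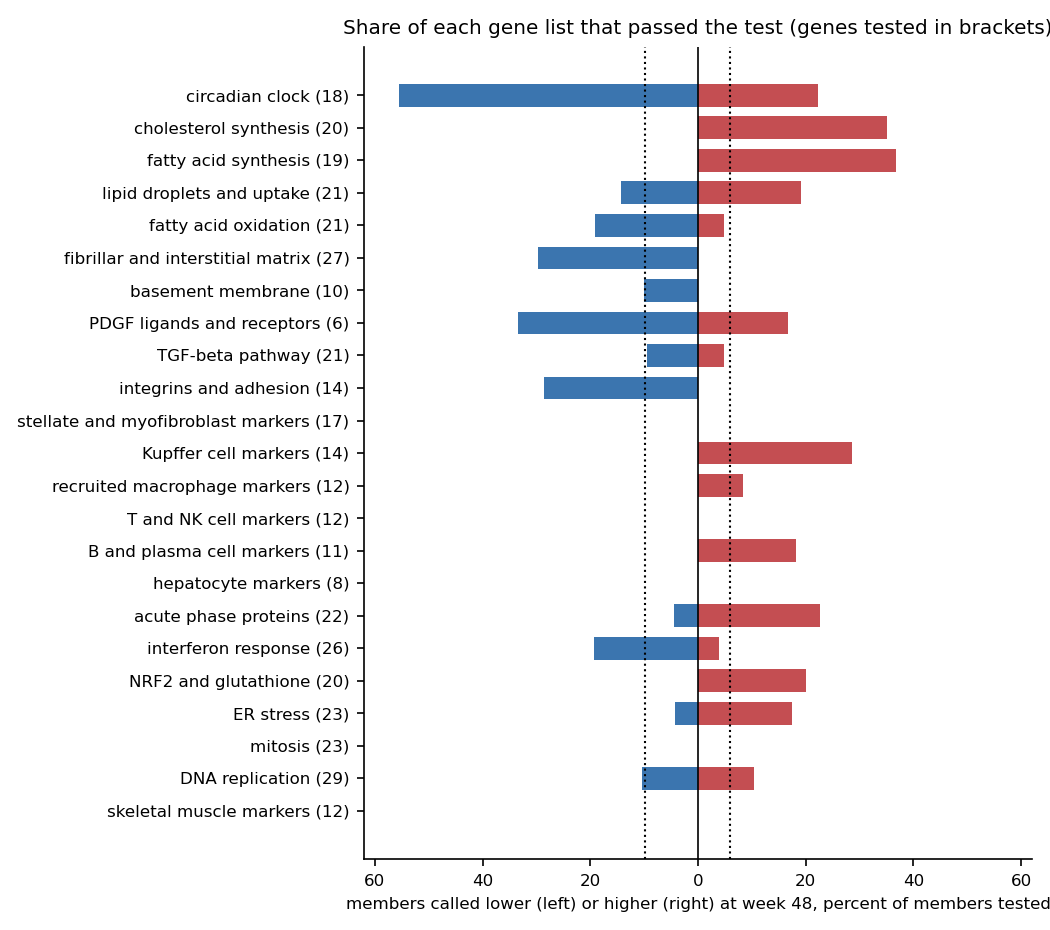
Percent of the tested members of each gene list that were called higher (right, red) or lower (left, blue) at week 48 against week 20 in transgenic liver, with the number of members tested in brackets and dotted lines at the share of all genes called in that direction, 5.99% and 9.76%. The circadian clock list reaches furthest to the left, and cholesterol and fatty acid synthesis reach furthest to the right with no member called lower.

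Among the gene lists with over 3 members tested, the clock had the largest share of members called. Of 18 clock genes tested, 4 rose and 10 fell, and for 14 of the 18 the 5 and 5 signals did not overlap, beside 15.7% of all genes called and 14.3% without overlap. The list's median log2 change was -1.12, against -0.04 over all genes. Of the members that passed, those on the activating side and the repressor Nfil3 were higher at week 48, and the Per and Cry genes and the outputs were lower. The labels give no hour of sampling, so age and a difference in hour between the groups cannot be told apart. For 4 of the genes that fell, Ciart, Per3, Per1 and Tef, a stretch of 250 bases just before an annotated start held a clock motif. Tef held an E-box in both of its windows and Per1 in 1 of 2; for these the first window is given. They are printed 5′ to 3′ on the gene's own strand, from RefSeq (GRCm38.p6). Capitals mark the E-box CACGTG, which Arntl with Clock or Npas2 is known to bind, or the D-box TTATGTAA, which Dbp, Tef and Hlf are known to bind.
Ciart, chr3:95882229-95882478, minus strand: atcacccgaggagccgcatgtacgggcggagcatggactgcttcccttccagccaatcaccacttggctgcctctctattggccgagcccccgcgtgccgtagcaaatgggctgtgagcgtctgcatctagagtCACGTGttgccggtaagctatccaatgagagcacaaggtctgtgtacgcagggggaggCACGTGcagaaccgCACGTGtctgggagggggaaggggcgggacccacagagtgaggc
Per3, chr4:151044666-151044915, minus strand: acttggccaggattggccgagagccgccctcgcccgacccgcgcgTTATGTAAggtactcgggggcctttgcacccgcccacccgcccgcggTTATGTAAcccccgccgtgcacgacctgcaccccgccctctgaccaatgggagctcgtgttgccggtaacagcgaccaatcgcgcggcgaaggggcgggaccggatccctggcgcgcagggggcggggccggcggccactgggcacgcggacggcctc
Per1, chr11:69098699-69098948, plus strand: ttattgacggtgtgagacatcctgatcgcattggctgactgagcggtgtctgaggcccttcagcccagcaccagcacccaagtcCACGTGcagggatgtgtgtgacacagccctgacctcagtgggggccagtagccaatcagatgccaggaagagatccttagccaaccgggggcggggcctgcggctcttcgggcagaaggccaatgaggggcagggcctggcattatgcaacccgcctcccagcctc
Tef, chr15:81802423-81802672, plus strand: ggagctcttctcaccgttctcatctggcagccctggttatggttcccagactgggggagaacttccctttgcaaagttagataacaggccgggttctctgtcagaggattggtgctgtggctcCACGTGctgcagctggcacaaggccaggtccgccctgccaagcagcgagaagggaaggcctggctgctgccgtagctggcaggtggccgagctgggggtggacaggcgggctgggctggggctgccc
Both strands were searched, and neither motif overlaps the other. The E-box was found in 6.02% of all 32851 promoter windows of this length and the D-box in 0.819%. Of the 14 clock genes that passed the test, 13 had a window; 3 of them held an E-box in at least 1 window and 1 held a D-box. A match is only a match of letters in this window, and no binding was measured.

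Among the activators, Npas2, a partner of Arntl, was near the bottom of the scale at week 20. The signals of Npas2 were 2.4, 17.9, 27.1, 54.5 and 3 at week 20 and 169.5, 285, 116, 181 and 239.5 at week 48. Every week 48 signal lay above every week 20 signal, and Npas2 rose by 2.66 ± 0.45 (adjusted p = 0.000231), or by 1.62 with an offset of 64. Arntl, the core activator, gave signals of 190.2, 220.2, 227, 212 and 229 at week 20 and 473, 1075, 746, 840.5 and 895 at week 48. It rose by 1.78 ± 0.39 (adjusted p = 0.00254) without overlap; a dimmer probe set of Arntl went the other way (-0.39), and the change was 0.70 with averaged probe sets, still called. Clock rose by 0.70 ± 0.20 (adjusted p = 0.0143) on the brightest of its probe sets, and another gave -0.68, so that the call was lost with averaged probe sets (adjusted p = 0.589). Nfil3, a repressor at D-boxes, rose by 1.29 ± 0.28 (adjusted p = 0.00264), from 567 ± 49.7 (SD, n = 5) to 1479 ± 545.

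The negative limb and the outputs moved the opposite way. Per3, whose promoter window holds the pair of D-boxes printed above, gave 556, 433, 370.1, 360.5 and 244 at week 20 and 81.5, 37, 43.2, 37.3 and 64.2 at week 48, and fell by 2.57 ± 0.39 (adjusted p = 7.05e-05; -1.66 with averaged probe sets). For Per2 the signals were 1029.7, 811, 859, 797 and 537 at week 20 and 167, 174, 155, 124 and 156 at week 48. All 5 week 48 signals of Per2 lay between 124 and 174, below the lowest week 20 signal of 537, a log2 change of -2.24 ± 0.36 (adjusted p = 0.000109). Ciart, a transcriptional repressor of Arntl and Clock with 3 E-boxes in its window, fell from 286, 446, 344, 124 and 199.8 to 6.4, 24.3, 7.5, 40 and 15. Its log2 change was -3.06 ± 0.69 (adjusted p = 0.00293; -1.99 with an offset of 64). Cry2 fell by 1.07 ± 0.23 (adjusted p = 0.00229) and Nr1d2, a nuclear receptor that represses Arntl, by 1.17 ± 0.29 (adjusted p = 0.00538), both without overlap. Per1 fell by 1.55 ± 0.48 (adjusted p = 0.0244), and its groups overlapped at 1 week 20 array; that call was lost without week 20 replicates 1, 2 or 3 or week 48 replicates 3 or 4 (adjusted p = 0.0566 to 0.0778).

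Dbp, the output factor with the widest daily swing in liver, had the largest fall of the named genes at the offset of 16; with an offset of 1 that of Ciart was larger. The signals of Dbp were 4695, 4103, 4392, 7743 and 5106 at week 20 and 1435, 126, 1715, 908 and 156 at week 48. The week 48 arrays differed among themselves, with replicates 2 and 5 near 126 to 156 and the other 3 between 908 and 1715, yet all lay below week 20; the log2 change was -3.17 ± 0.73 (adjusted p = 0.00347). Tef fell by 1.41 ± 0.27 (adjusted p = 0.000792) and Hlf by 1.31 ± 0.30 (adjusted p = 0.00348; -0.84 with averaged probe sets). Usp2, a deubiquitinase under clock control, gave 2255, 2222, 2009.5, 1530.3 and 1313 at week 20 and 267, 274, 206, 522 and 219.8 at week 48, a log2 change of -2.63 ± 0.42 (adjusted p = 0.000124). The 4 members that did not pass were Bhlhe40 (-0.70 ± 0.27, adjusted p = 0.0795), Rora (-0.44 ± 0.21), Cry1 (0.27 ± 0.36) and Nr1d1 (-0.18 ± 0.61, adjusted p = 0.876). Nr1d1 gave 216, 251, 277, 415 and 806 at week 20 and 793, 34.1, 714, 737 and 138 at week 48, so that week 48 replicates 2 and 5 lay below every week 20 array and the other 3 within their range. Leaving out any 1 array of either age kept 4 higher and 9 or 10 lower, and the alternatives gave 3 or 4 higher and 9 to 11 lower.

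**Figure D2:**
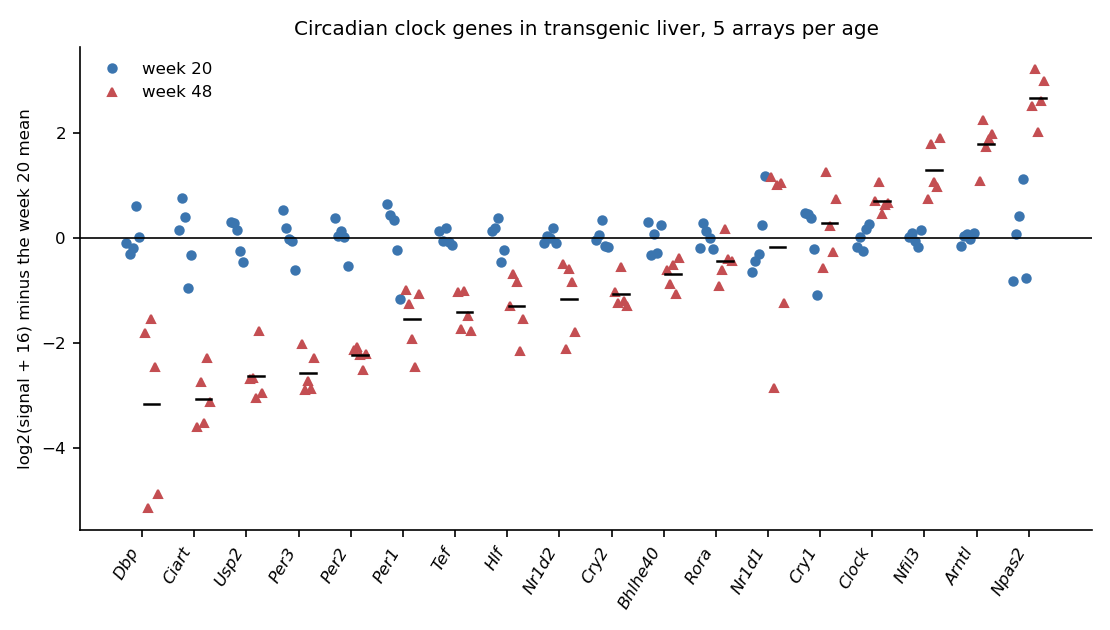
Signals of the 18 clock genes in each transgenic array as log2(signal + 16) minus the mean of week 20 (blue circles, week 20; red triangles, week 48; 5 arrays each; black bars, week 48 mean), ordered by change. From Dbp to Cry2 the triangles lie below 0, and for Clock, Nfil3, Arntl and Npas2 they lie above 0.

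In wild-type liver at the same ages, 4 clock genes rose and 6 fell, beside 2.41% and 4.47% of all genes (6.88% called in all), and in peretinoin-fed transgenic liver 0 rose and 1 fell, beside 4.89% and 8.57% (13.5% in all). The wild-type list median was -0.48 and the peretinoin one -0.21. Dbp changed by -3.79 ± 0.77 in wild type (adjusted p = 0.0034) and -1.51 ± 0.73 on peretinoin (adjusted p = 0.173), and Arntl by 1.72 ± 0.42 (adjusted p = 0.0117) and 0.90 ± 0.39 (adjusted p = 0.127). Per2 changed by -0.60 ± 0.38 in wild type (adjusted p = 0.383), and the difference from the transgenic change, -1.65 ± 0.52, did not pass (adjusted p = 0.177). Of the 18 genes, 0 passed the test of the difference from wild type and 1, Usp2, that of the difference from peretinoin (-2.60 ± 0.60, adjusted p = 0.0338), beside 0.275% and 0.679% of all genes. The peretinoin week 20 arrays were spread widely for Usp2, at 418, 253, 388, 1756 and 1846, where replicates 4 and 5 were the high ones.

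Outside the clock list, Elovl3, Aqp8 and Serpina7 were among the largest rises. The hour of sampling is not given for any array, so age and hour cannot be told apart for genes outside that list either. Elovl3, an elongase of very long fatty acids, gave 98.7, 344, 65.7, 2069 and 2662 at week 20 and 2817, 14698, 13113, 5052 and 13339 at week 48. It rose by 4.18 ± 0.78 (adjusted p = 0.000586) without overlap, although week 20 replicates 4 and 5 were brighter than the other 3. Aqp8, a water channel of hepatocytes, gave 373, 593, 607, 1304 and 1409 at week 20 and 5269, 3396, 3354, 5608 and 6235 at week 48 and rose by 2.58 ± 0.40 (adjusted p = 7.29e-05). Serpina7, the thyroxine-binding globulin, had signals of 1888, 1814, 2005, 5294 and 4891 at week 20 and 16236, 12706, 13339, 10597 and 15142 at week 48. At week 20 its replicates 4 and 5 were again the high ones, and it rose by 2.25 ± 0.31 (adjusted p = 2.32e-05). Gprc5b, an orphan receptor, rose by 2.43 ± 0.52 from dim signals of 11, 17.9, 48.9, 19.2 and 13.5 (1.54 with an offset of 64). Fabp7, a fatty acid binding protein best known in brain, rose by 2.17 ± 0.51 and Gys1, the muscle form of glycogen synthase, by 2.05 ± 0.48 (1.30 with an offset of 64). Spon2 rose by 2.07 ± 0.37 and Gas7 by 2.18 ± 0.51 on their brightest probe sets, and other probe sets gave -0.01 and -0.04; averaged probe sets gave 1.03 and 0.93, both still called. Cxcl14, a chemokine, rose by 2.19 ± 0.59 (adjusted p = 0.0107), a call lost without week 20 replicate 3 (adjusted p = 0.052).

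The largest falls outside the clock list included Nrg4, Cyp2b10 and Cyp4a31. Nrg4, a growth factor of the EGF family that liver and fat secrete, gave 1085, 964, 974, 614 and 661 at week 20 and 125, 214, 251, 234 and 166 at week 48 and fell by 2.04 ± 0.38 (adjusted p = 0.000586). Its change differed from that on peretinoin, where it was 0.61 ± 0.38 (difference -2.65 ± 0.53, adjusted p = 0.0205). Cyp2b10, a cytochrome P450 induced through the receptor CAR, fell from 476 ± 255 (SD, n = 5) to 84.8 ± 73.8 without overlap. Its change, -2.38 ± 0.70 (adjusted p = 0.0193), was lost as a call without week 20 replicates 2 or 3 (adjusted p = 0.0525 to 0.0587). Cyp4a31, a fatty acid hydroxylase, fell by 2.11 ± 0.44 (adjusted p = 0.00155) from 2715, 2064, 1526, 425 and 404, where replicates 4 and 5 were the low ones, to 152 to 388. Palm, a membrane protein, fell by 2.16 ± 0.35 (-1.33 with an offset of 64) and the zinc finger gene Zfp688 by 1.71 ± 0.35 (-1.11 with an offset of 64). Gdap10 fell from 611 ± 163 (SD, n = 5) to 149.9 ± 64.4 (adjusted p = 0.0117), and Layn, a hyaluronan receptor, by 1.69 ± 0.33 (adjusted p = 0.00106), although another probe set of Layn gave 0.25 and its call was lost with averaged probe sets (adjusted p = 0.0932).

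Of the 12 largest rises, 4 were also called higher in wild-type liver and 6 in peretinoin-fed liver, beside 2.41% and 4.89% of all genes. Of the 12 largest falls, 5 and 4 were called lower, beside 4.47% and 8.57%. These falls included Dbp, Ciart, Usp2, Per3 and Per2 of the clock list, and the rises included Npas2. For them age and hour of sampling cannot be told apart. Over all genes, 389 genes were called in the same direction in transgenic and wild-type liver, 135 higher and 254 lower, with 6 in opposite directions. The 389 made up 18.9% of the 2063 transgenic calls and 43.2% of the 901 wild-type calls. Of all genes, 6.88% were called in wild-type and 15.7% in transgenic liver, in either direction. With peretinoin, 205 genes were called higher and 399 lower at both, which was 29.3% of the transgenic and 34.3% of the 1762 peretinoin calls, with 9 in opposite directions. On peretinoin 13.5% of all genes were called.

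Genes of sterol synthesis were higher at week 48. In the list of cholesterol synthesis and its control, 7 of 20 members rose and 0 fell, against 5.99% and 9.76% of all genes, with a median of 0.81. All 20 had a change above 0. Pmvk, phosphomevalonate kinase, gave 452, 427, 579, 1193 and 944 at week 20 and 2004, 1393, 1883, 2172 and 2316 at week 48 and rose by 1.52 ± 0.26 (adjusted p = 0.000215). Insig1, which holds the sterol sensor in the endoplasmic reticulum and is itself a target of SREBP, gave 1698, 1137, 1527, 1523 and 1231 at week 20 and 2326, 2046, 2659, 2307 and 2030.4 at week 48. It rose by 0.68 ± 0.14 (adjusted p = 0.00179), and Sc5d, an enzyme late in the pathway, by 0.75 ± 0.16 (adjusted p = 0.00194); both were without overlap. Hmgcs1, which makes HMG-CoA, gave 6080.2, 4888, 3817, 12474 and 14318 at week 20 and 20641, 13097, 15772, 18718 and 21419 at week 48. Week 20 replicate 5 lay within the week 48 range of Hmgcs1 and replicate 4 just below it, and the rise was 1.28 ± 0.30 (adjusted p = 0.00409). Ebp rose by 0.41 ± 0.11. Fdps rose by 1.48 ± 0.46 and Nsdhl by 0.99 ± 0.34 (adjusted p = 0.0266 and 0.0456); the call of Fdps was lost without week 20 replicates 1, 2 or 3 or week 48 replicates 4 or 5 (adjusted p = 0.0556 to 0.0807), and that of Nsdhl without week 20 replicates 1, 2 or 3 or week 48 replicates 1, 3, 4 or 5, with no filter on dim probe sets, with robust eBayes and without the arrays that carried muscle or pancreas transcripts (adjusted p = 0.0558 to 0.138).

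The week 20 arrays did not share these levels evenly. Of the 20 sterol genes, 16, 20 and 17 lay below every week 48 signal in week 20 replicates 1, 2 and 3, but 4 did in each of replicates 4 and 5, where 3 others lay above every week 48 signal. Without week 20 replicate 4, without week 20 replicate 5 or without week 48 replicate 2, 12 members were called higher in place of 7; leaving out each other array gave at least 5. A replicate block, which was fitted to the compared arrays alone, gave 14, and median centring gave 11. In wild-type liver 1 of the 20 was called higher (Hmgcs1, 1.10 ± 0.32, adjusted p = 0.0315), beside 2.41% of all genes. On peretinoin 0 were called in either direction, beside 13.5% of all genes. The list medians were 0.47 in wild type and -0.19 on peretinoin. The test of the difference from wild type called 0 of the 20, beside 0.275% of all genes. Pmvk, Insig1 and Sc5d differed between the diets, by 1.70 ± 0.36, 1.07 ± 0.20 and 0.92 ± 0.22 (adjusted p = 0.0286, 0.0135 and 0.0455), beside 0.679% of all genes.

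Fatty acid synthesis followed the same order of arrays. Of 19 members tested, 7 rose and 0 fell, against 5.99% and 9.76% of all genes (median 0.70), and leaving out each array in turn gave 5 to 9. Me1, malic enzyme, a source of NADPH, gave 1636, 2886, 2736, 2938 and 3539 at week 20 and 7761, 6275, 7405, 5695 and 6175 at week 48 and rose by 1.31 ± 0.25 (adjusted p = 0.000884). Elovl5, an elongase of polyunsaturated fatty acids, gave 12748, 10968, 9110.4, 9569.5 and 11470.4 at week 20 and 22644, 19327, 19200.4, 19984 and 22627 at week 48. Its 5 week 48 signals lay above all week 20 signals, and it rose by 0.95 ± 0.14 (adjusted p = 3.67e-05), the smallest p of the list. Fasn, fatty acid synthase, gave 1622, 1622, 2121, 4194 and 5462 at week 20 and 7672, 5373, 7923, 6836 and 9186 at week 48, so that the groups overlapped, and rose by 1.46 ± 0.40 (adjusted p = 0.0114). Pnpla3, a lipase of lipid droplets, rose by 1.05 ± 0.27 (adjusted p = 0.00721). Acacb and Acly rose by 1.45 ± 0.47 and 0.70 ± 0.25 (adjusted p = 0.0309 and 0.0494); the first call was lost without week 20 replicates 1, 2 or 3 or week 48 replicates 1, 3 or 4 and without the arrays that carried muscle or pancreas transcripts (adjusted p = 0.0606 to 0.0853) and the second without week 20 replicates 1, 2, 3 or 4 or week 48 replicates 1, 3, 4 or 5, with no filter on dim probe sets, with an offset of 1, with quantile normalisation, with robust eBayes and without the arrays that carried muscle or pancreas transcripts (adjusted p = 0.05 to 0.132). In week 20 replicates 1 to 3, 13 or 14 of the 19 genes lay below every week 48 signal, against 6 and 9 in replicates 4 and 5. In wild-type liver 0 of the 19 were called in either direction, and on peretinoin 0 rose and 2 fell, beside 2.41% and 4.47%, and 4.89% and 8.57%, of all genes. The tests of the difference called 0 of the 19 against wild type and 0 against peretinoin, beside 0.275% and 0.679% of all genes.

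**Figure D3:**
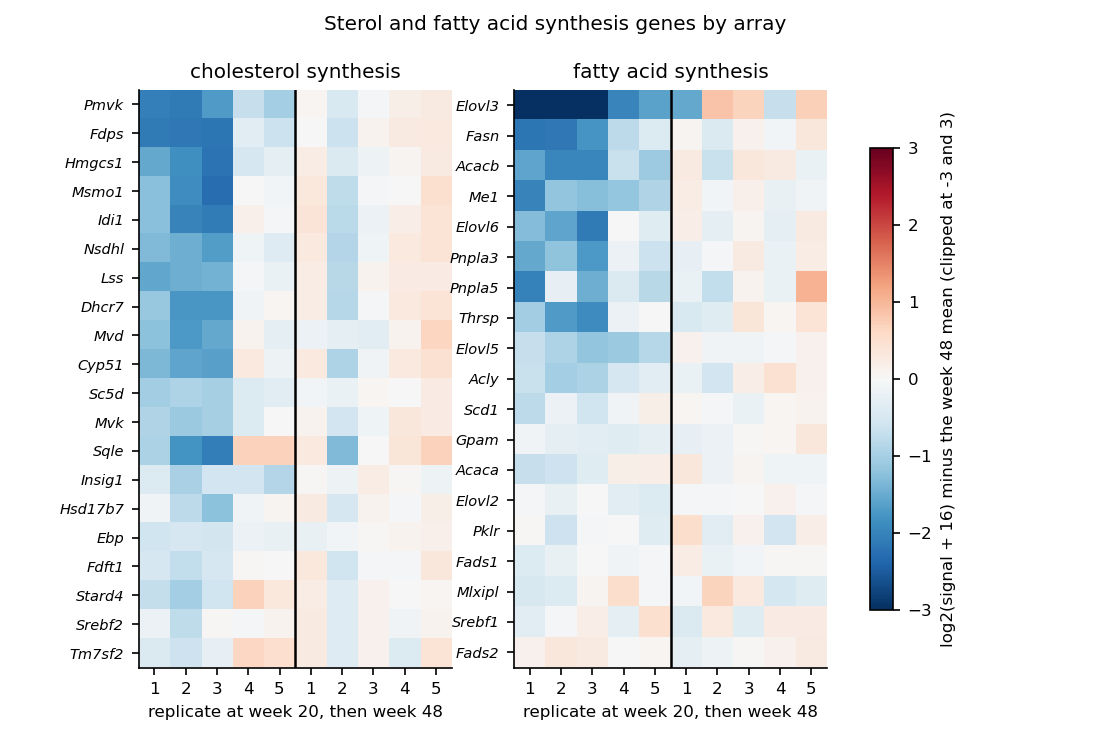
Cholesterol synthesis (20 genes, left) and fatty acid synthesis (19 genes, right) in the 10 transgenic arrays, as log2(signal + 16) minus the gene's week 48 mean, clipped at -3 and 3 (blue, below; red, above), with the week 20 replicates left and the week 48 replicates right of the black line. Week 20 replicates 1 to 3 are the bluest columns, and replicates 4 and 5 lie nearer to week 48.

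Genes of fatty acid oxidation and of lipid storage split. Of 21 oxidation genes, 1 rose and 4 fell, against 5.99% and 9.76% of all genes (median -0.27). Ppara, the nuclear receptor that switches oxidation on, gave 6058, 6378, 7103, 5229 and 5458 at week 20 and 3523, 2626, 3513, 2614 and 1979.5 at week 48 and fell by 1.10 ± 0.24 (adjusted p = 0.00191). Cpt1a, the carnitine transferase that admits fatty acids to mitochondria, fell by 0.66 ± 0.17 (adjusted p = 0.00966), a call lost with averaged probe sets (adjusted p = 0.278). Acot1, an acyl-CoA thioesterase, fell by 1.70 ± 0.46 (adjusted p = 0.011), lost without week 20 replicate 1 or week 48 replicate 5 (adjusted p = 0.0509 to 0.0535), and Cpt2 by 0.44 ± 0.12, lost with averaged probe sets, with median centring, in a fit of the compared arrays alone and with a replicate block (adjusted p = 0.0568 to 0.171). Pdk4, which turns pyruvate away from oxidation, rose from 409.8 ± 181 (SD, n = 5) to 1154 ± 358 (adjusted p = 0.0231), lost without week 20 replicates 3 or 4 or week 48 replicates 2, 4 or 5 (adjusted p = 0.052 to 0.0589). Without week 20 replicate 4, 7 oxidation genes were called lower. Of 24 respiratory chain genes 4 rose (Atp5a1, Cycs, Sdha and Ndufa9) and 0 fell, against 5.99% and 9.76% of all genes. The count was 1 without week 20 replicate 1, without week 48 replicate 2 or without the arrays carrying other tissue. It was 2 without week 20 replicates 4 or 5 or week 48 replicate 4. With averaged probe sets the calls of Atp5a1, Cycs and Sdha were lost (adjusted p = 0.114 to 0.994). That of Ndufa9 was lost with quantile normalisation, with no filter on dim probe sets and with a replicate block (adjusted p = 0.0544 to 0.0883).

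On the storage side, 4 of 21 droplet and uptake genes rose and 3 fell, against 5.99% and 9.76% of all genes. Fitm1, a protein of droplet formation known best in muscle, gave 419, 800.3, 584, 508 and 562 at week 20 and 1509.9, 2711, 2791, 2017 and 2615 at week 48 and rose by 1.98 ± 0.32 (adjusted p = 0.000153). It was also called without the arrays at least 3 log2 units above the median for muscle or pancreas markers. Week 48 replicate 1, which stood 2.16 above over the muscle markers, stayed in that fit. Plin3, a droplet coat protein, rose by 0.53 ± 0.12 (adjusted p = 0.00285). Lpl, lipoprotein lipase, gave 5980.3, 5987, 4254, 8462 and 9114 at week 20 and 12983, 16061, 10539, 17752 and 14190.1 at week 48. It rose by 1.11 ± 0.34 (adjusted p = 0.0215), a call lost without week 20 replicate 3 or week 48 replicate 4 (adjusted p = 0.0535 to 0.0743). Pparg, the fat cell receptor, rose by 0.86 ± 0.29 (adjusted p = 0.0395), lost without week 20 replicates 1, 4 or 5 or week 48 replicates 1, 2, 3 or 5, with no filter on dim probe sets and without the arrays that carried muscle or pancreas transcripts (adjusted p = 0.0507 to 0.138). Dgat2, which makes triglyceride, fell by 0.80 ± 0.14 (adjusted p = 0.000245) and Pnpla2, the main lipase of stored triglyceride, by 0.71 ± 0.17 (adjusted p = 0.00421), both without overlap; Fitm2 fell by 0.61 ± 0.17, a call lost with median centring (adjusted p = 0.0693).

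Pdgfc itself was higher at week 48. The signals of Pdgfc were 386, 376, 321, 284 and 210.0 at week 20 and 1219, 828, 517, 578 and 846 at week 48, without overlap, a rise of 1.26 ± 0.20 (adjusted p = 0.000109). The sources do not say if these probes would read the transgene, so the values check no genotype. In wild-type liver Pdgfc changed by 0.51 ± 0.21 (adjusted p = 0.148) and on peretinoin by 0.39 ± 0.20 (adjusted p = 0.194); neither difference from the transgenic change passed (adjusted p = 0.263 and 0.136). Pdgfra, the receptor that PDGF-C binds, moved the other way, with 4857, 3604, 4398, 4257 and 3606 at week 20 and 2849.8, 2196, 1860.0, 2170.1 and 1788 at week 48. It fell by 0.94 ± 0.29 (adjusted p = 0.0257) on its brightest probe set, another probe set gave 0.00, and the call was lost without week 20 replicates 1 or 3 or week 48 replicates 3 or 5 and with averaged probe sets (adjusted p = 0.0554 to 0.218). Pdgfrb, the beta receptor, changed by -0.44 ± 0.23 and did not pass (adjusted p = 0.205). Pdgfa fell by 0.54 ± 0.18 (adjusted p = 0.0396), another of its probe sets gave 0.26, and the call was lost without week 20 replicates 1, 4 or 5 or week 48 replicates 3 or 4, with averaged probe sets, with median centring, with no filter on dim probe sets and without the arrays that carried muscle or pancreas transcripts (adjusted p = 0.0547 to 0.619). In all, 1 of 6 PDGF genes rose and 2 fell, beside 5.99% and 9.76% of all genes.

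Genes of the interstitial matrix were lower at week 48 than at week 20. Of 27 tested, 0 rose and 8 fell (29.6%, against 9.76% of all genes), with a median of -0.48. Col1a2, a chain of type I collagen, gave 3181, 2762, 2661, 2739 and 2825 at week 20 and 1133, 890.3, 1492, 2060.1 and 1228 at week 48. It fell by 1.10 ± 0.27 (adjusted p = 0.00609) without overlap. Col3a1, of type III collagen, gave 7371, 6457, 6519.6, 6861 and 7701 at week 20 and 2988, 3023, 4635, 5861 and 4899 at week 48, fell by 0.75 ± 0.25 (adjusted p = 0.0361) without overlap, and was not called without week 20 replicates 1, 2, 3, 4 or 5 or week 48 replicates 1 or 2, with averaged probe sets and with median centring (adjusted p = 0.0523 to 0.102). Col1a1, the partner of Col1a2, changed by -0.73 ± 0.29 and did not pass (adjusted p = 0.0859; signals of 998, 670.5, 766, 793 and 863 at week 20 and 445, 359.5, 476, 691 and 505 at week 48). Another probe set of Col1a1 gave 0.15; it was called with an offset of 64, in a fit of the compared arrays alone, with a replicate block and without the arrays that carried muscle or pancreas transcripts (adjusted p = 0.00942 to 0.0457).

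Fbln5, which assembles elastic fibres, fell by 1.02 ± 0.25 (adjusted p = 0.00588), from 2282, 2364, 2436, 1584 and 1244 to 1176, 818, 1004, 865 and 874. Week 20 replicates 4 and 5 were the lower ones, but the groups did not overlap. Col6a1, of the beaded type VI collagen, fell by 1.04 ± 0.30 (adjusted p = 0.0177; not called without week 20 replicate 1 (adjusted p = 0.0501)) and Col6a3 by 0.80 ± 0.26 (adjusted p = 0.0345). Fbln1, Ogn and Eln fell by 0.72 ± 0.21, 0.85 ± 0.29 and 0.60 ± 0.21, with overlap. The calls of Fbln1 were lost without week 20 replicate 2 or week 48 replicates 2 or 3 and with median centring (adjusted p = 0.0505 to 0.0643), those of Col6a3 without week 20 replicates 1, 4 or 5 or week 48 replicates 2, 3, 4 or 5, with median centring and without the arrays that carried muscle or pancreas transcripts (adjusted p = 0.0544 to 0.115), those of Ogn without week 20 replicates 1, 2, 3 or 4 or week 48 replicates 2, 3, 4 or 5, with averaged probe sets, with median centring, with no filter on dim probe sets, with an offset of 1 and with quantile normalisation (adjusted p = 0.0515 to 0.114), and those of Eln without week 20 replicates 1, 3, 4 or 5 or week 48 replicates 2, 3 or 5, with median centring, with no filter on dim probe sets, with an offset of 1, with quantile normalisation and without the arrays that carried muscle or pancreas transcripts (adjusted p = 0.0516 to 0.121).

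The count of 8 rested on the settings: it was 3 with median centring, 14 in a fit of the compared arrays alone and 14 with a replicate block. Without week 20 replicates 1, 2, 3, 4 or 5 it was 3, 5, 5, 4 and 5, and without week 48 replicates 2, 3 or 5 it was 3, 4 and 5. The summed signal of the 27 genes was 78188 to 84631 per array at week 20 and 53290 to 64322 at week 48, as deposited. In peretinoin-fed liver 0 rose and 8 fell as well (list median -0.43), beside 4.89% and 8.57% of all genes. In wild-type liver 1 rose and 0 fell (median 0.17), beside 2.41% and 4.47%. The test of the difference from wild type called 0 of the 27, beside 0.275% of all genes. That of the difference between the diets called 1, beside 0.679%.

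Markers of the cells that make matrix gave no call. Of 17 stellate and myofibroblast markers, 0 rose and 0 fell, beside 15.7% of all genes called, and their median was -0.06, or 0.06 with median centring. Acta2, smooth muscle actin, gave 774, 878, 794, 917 and 1084 at week 20 and 1670.5, 753, 613, 1454 and 626 at week 48, a change of 0.08 ± 0.32 (adjusted p = 0.899). Week 48 replicates 1 and 4 were the high ones. Over the skeletal muscle markers these arrays stood 2.16 and 7.80 log2 units above the median, and a link to Acta2 was not tested. Timp1, an inhibitor of matrix proteases, changed by 0.21 ± 0.31 (adjusted p = 0.701). Among integrins and their partners, 0 of 14 rose and 4 fell, beside 5.99% and 9.76% of all genes. With median centring 2 fell. Tns1, tensin, which ties integrins to actin, gave 3456, 3769, 4591, 2533 and 3783 at week 20 and 1558, 1139.7, 1098, 1184 and 747 at week 48, without overlap. It fell by 1.66 ± 0.24 (adjusted p = 4.31e-05). Tns3 fell by 0.74 ± 0.16 (adjusted p = 0.0018). Itgb5 and Itgb8 fell by 0.37 ± 0.11 and 0.94 ± 0.31; the first call was lost with median centring and without the arrays that carried muscle or pancreas transcripts (adjusted p = 0.0545 to 0.151) and the second without week 20 replicates 1, 4 or 5 or week 48 replicates 3 or 5, with median centring, with no filter on dim probe sets and with an offset of 1 (adjusted p = 0.0525 to 0.115). In the TGF-beta list 1 of 21 rose (Ltbp1, which stores latent TGF-beta, 0.71 ± 0.18, adjusted p = 0.00721) and 2 fell, shares near those of all genes (5.99% and 9.76%). Those that fell were Ski, a repressor of the pathway (-0.45 ± 0.11, lost with median centring (adjusted p = 0.0658)), and Tgfbr1, a receptor (-0.35 ± 0.10, lost without week 48 replicate 4, with averaged probe sets and with median centring (adjusted p = 0.0652 to 0.917)). Another probe set of Tgfbr1 gave 0.31. The count of lower members was 0 with median centring and 6 in a fit of the compared arrays alone or with a replicate block.

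Some markers of resident macrophages were higher at week 48. Of 14 Kupffer cell markers 4 rose and 0 fell, against 5.99% and 9.76% of all genes, with a median of 0.71. Clec4f, a lectin found on Kupffer cells alone among liver cells, gave 352, 282, 391, 134 and 129.7 at week 20 and 1223, 978, 1853, 329.7 and 3491 at week 48. Week 48 replicate 5 was the highest and replicate 4 lay within the week 20 range, and Clec4f rose by 2.30 ± 0.62 (adjusted p = 0.0113). Vsig4, a complement receptor, gave 2022, 1460.0, 1874, 1067 and 838 at week 20 and 3904, 3466, 4317, 2359.6 and 9423 at week 48 and rose 3.02-fold (adjusted p = 0.016), a call lost without week 48 replicate 5 (adjusted p = 0.065). Cd5l, a secreted scavenger protein, gave 1335, 1892, 1726, 677 and 552 at week 20 and 2437, 3214, 4657, 1770.5 and 7821 at week 48. It rose by 1.64 ± 0.51 (adjusted p = 0.0269), a call lost without week 20 replicates 4 or 5 or week 48 replicates 3 or 5 (adjusted p = 0.0613 to 0.0963). Folr2, a folate receptor of resident macrophages, rose by 1.46 ± 0.49 (adjusted p = 0.0397), lost without week 20 replicates 1, 2, 3, 4 or 5 or week 48 replicates 1, 3 or 5 and with no filter on dim probe sets (adjusted p = 0.0511 to 0.155).

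Over the whole Kupffer list the summed signal was 13704 to 18529 per array at week 20 and 18323 to 45609 at week 48, so the ranges met at their edges. The count of 4 became 2 without week 20 replicates 4 or 5 or week 48 replicate 3, and 1 without week 48 replicate 5. Without the arrays that carried muscle or pancreas transcripts it was 6. Cd163, a scavenger receptor on the same cells, stayed low in all arrays, with 62.3, 68.2, 76.1, 54 and 36.1 at week 20 and 57.1, 5.4, 21.4, 60.3 and 53.5 at week 48, and did not pass (adjusted p = 0.401). In wild-type liver 0 of the 14 were called in either direction (median -0.12), beside 6.88% of all genes. On peretinoin 5 rose and 0 fell (median 0.83), beside 4.89% and 8.57%. The test of the difference from wild type called 0 of the 14, beside 0.275% of all genes.

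**Figure D4:**
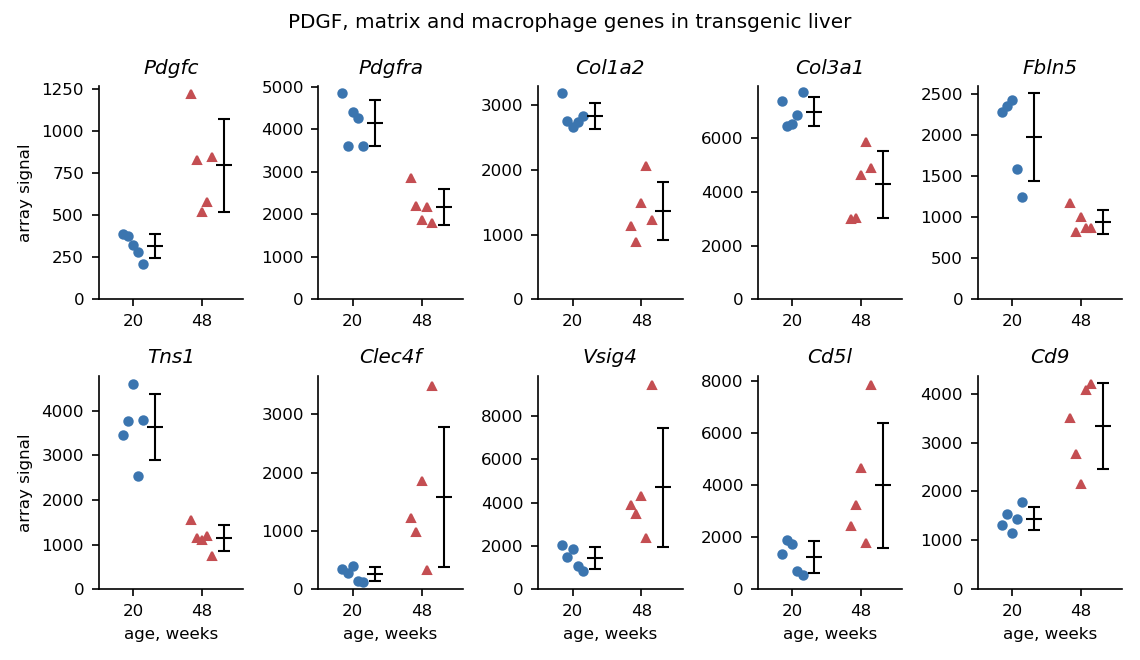
Array signals (linear scale) of PDGF, matrix, adhesion and macrophage genes in transgenic liver at week 20 (blue circles) and week 48 (red triangles), 5 arrays each, with the mean and SD as black bars. Pdgfc, Vsig4 and Cd9 are higher and Pdgfra, Col1a2, Col3a1, Fbln5 and Tns1 are lower at week 48 without overlap, while 1 week 48 array of Clec4f and 1 of Cd5l lie within the range of week 20.

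Other blood and immune cell lists were counted in the same way. Among 12 markers of recruited macrophages, 1 rose and 0 fell, beside 5.99% and 9.76% of all genes. The 1 was Cd9, a tetraspanin of scar-associated macrophages that other liver cells also express. It gave 1319, 1542, 1144, 1428 and 1782 at week 20 and 3497, 2769.5, 2143, 4082 and 4192 at week 48 and rose by 1.17 ± 0.24 (adjusted p = 0.00166). Cx3cr1, the fractalkine receptor, changed by 0.59 ± 0.38 and did not pass (adjusted p = 0.31); it was called with averaged probe sets, in a fit of the compared arrays alone and with a replicate block (adjusted p = 0.0102 to 0.0428). Of 12 T and NK cell markers 0 passed in either direction (median 0.06), beside 15.7% of all genes called. In the B and plasma cell list 2 of 11 rose and 0 fell, beside 5.99% and 9.76% of all genes. The median of that list was -0.18, and only 4 of the 11 had a change above 0. Jchain, the chain that joins secreted IgA and IgM, rose by 1.78 ± 0.44 (adjusted p = 0.00617), and Ighm, the heavy chain of IgM, by 2.21 ± 0.77 (adjusted p = 0.0476). The call of Ighm was lost without week 20 replicates 1, 2, 3 or 4 or week 48 replicates 1, 2, 4 or 5, with no filter on dim probe sets and with robust eBayes (adjusted p = 0.0543 to 0.139). None of 8 neutrophil markers passed (0 higher and 0 lower), beside 15.7% of all genes called. Their summed signal was 2683 to 8083 at week 20 and 2259 to 21485 at week 48.

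Acute phase proteins, which hepatocytes secrete in inflammation, gave 5 higher and 1 lower of 22, against 5.99% and 9.76% of all genes. Lcn2, lipocalin, which binds bacterial siderophores, gave 572, 772, 656, 476 and 796 at week 20 and 2850.3, 2609, 6685, 2868 and 13338 at week 48 without overlap and rose by 2.79 ± 0.65 (adjusted p = 0.00395). Orm2, an orosomucoid, had signals of 599.8, 1148, 725, 928 and 1161 at week 20 and 2769, 2627, 9299, 2699.8 and 15365 at week 48. Week 48 replicates 3 and 5 were the high ones for both genes; Orm2 rose by 2.45 ± 0.70 (adjusted p = 0.0159), a call lost without week 48 replicate 5 (adjusted p = 0.0618). Orm1 rose by 0.68 ± 0.14 (adjusted p = 0.0015), Orm3 by 2.16 ± 0.60 (lost without week 48 replicate 5 (adjusted p = 0.0505)) and Steap4 by 0.71 ± 0.22 (lost without week 20 replicates 1, 2 or 3 or week 48 replicates 3 or 5 (adjusted p = 0.0504 to 0.103)). The Orm genes are near copies, so their probe sets may share signal. Il6ra, the interleukin 6 receptor, fell by 1.54 ± 0.33 (adjusted p = 0.00217), from 1026, 706, 622, 583 and 352 to 315, 157, 233, 150.4 and 196. Without week 48 replicate 5 the count of higher members was 2, and with a replicate block 9.

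In the interferon list 1 of 26 rose and 5 fell, beside 5.99% and 9.76% of all genes, with a median of -0.03, or 0.09 with median centring. Bst2, tetherin, rose by 0.64 ± 0.11 (adjusted p = 0.000384). Ifit1, Igtp and Irf7 fell by 0.87 ± 0.20, 0.80 ± 0.20 and 0.73 ± 0.19 (adjusted p = 0.00344, 0.0065 and 0.00843), each with overlapping groups. Usp18 and Tap1 fell by 0.64 ± 0.18 and 0.59 ± 0.17; the call of Usp18 was lost without week 48 replicate 4 and without the arrays that carried muscle or pancreas transcripts (adjusted p = 0.0573 to 0.0695) and that of Tap1 without week 20 replicate 1 or week 48 replicates 2 or 4, with median centring and without the arrays that carried muscle or pancreas transcripts (adjusted p = 0.0526 to 0.108). Without week 48 replicate 4 the count of lower members was 3.

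Mitosis genes gave no call in these livers, which were not labelled as tumor. Of 23 tested 0 rose and 0 fell, beside 15.7% of all genes called, with a median of 0.29 and 20 of 23 above 0; 1 rose without week 20 replicate 3 and 3 with a replicate block. Mki67, the proliferation antigen, gave 126, 87.2, 74.9, 64.6 and 230.4 at week 20 and 161, 98.8, 139.8, 201 and 256 at week 48, with overlap, a change of 0.56 ± 0.50 (adjusted p = 0.479). Cdk1 changed by -0.04 ± 0.45 and Ccnd1, cyclin D1, by 0.36 ± 0.34 (adjusted p = 0.968 and 0.511). Afp, the fetal albumin that some liver tumors express again, gave 317, 213, 164, 520.5 and 430.0 at week 20 and 222, 278, 552, 620.1 and 701 at week 48; its change of 0.49 ± 0.36 did not pass (adjusted p = 0.381). Among 29 replication genes 3 rose and 3 fell, against 5.99% and 9.76% of all genes, of which 1 fell without week 20 replicate 2 or week 48 replicates 1, 2 or 5, or with median centring.

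Rpa3, a subunit of the protein that coats single-stranded DNA, gave 636, 661, 476, 543 and 692 at week 20 and 1021, 845, 783, 919 and 814 at week 48 and rose by 0.54 ± 0.12 (adjusted p = 0.00208). Rfc3, of the clamp loader, rose by 0.66 ± 0.14 (adjusted p = 0.0019) and Fen1, a flap nuclease, by 1.53 ± 0.40 (lost in a fit of the compared arrays alone (adjusted p = 0.0547)). Ccne1, cyclin E, fell by 0.99 ± 0.25 (adjusted p = 0.00588), with a like fall in wild type (-1.08 ± 0.26, adjusted p = 0.0111). Mcm2 and Tk1 fell by 0.93 ± 0.29 and 0.57 ± 0.19; another probe set of Mcm2 gave 0.47, its call was lost without week 20 replicates 1, 2 or 5 or week 48 replicates 1, 2 or 5, with averaged probe sets and with median centring (adjusted p = 0.0505 to 0.638), and that of Tk1 without week 20 replicates 2 or 3 or week 48 replicates 1, 2 or 5, with median centring, in a fit of the compared arrays alone and with quantile normalisation (adjusted p = 0.0504 to 0.152). In the list of cell cycle inhibitors and p53 targets, 2 of 20 rose and 2 fell, beside 5.99% and 9.76% of all genes. The count of those that fell was 0 without week 20 replicates 2 or 3 or week 48 replicates 1 or 4, and 1 without any other array except week 20 replicate 4. Bbc3, which encodes the death factor PUMA, gave 226, 246, 280.1, 358 and 509 at week 20 and 538, 713, 701, 655 and 642 at week 48, without overlap, and rose by 1.02 ± 0.18 (adjusted p = 0.000282). Cdkn2b, the inhibitor p15, rose by 1.36 ± 0.33 (adjusted p = 0.00474; 0.87 with an offset of 64), from 15.5, 71.6, 19.9, 80.9 and 74.1 to 138, 108, 152, 156 and 158.

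Genes of glutathione metabolism included 4 of 20 that rose and 0 that fell, against 5.99% and 9.76% of all genes. Gstm6, a glutathione transferase, gave 1043, 1292, 1164, 3089.9 and 1631 at week 20 and 4237, 3582, 3558, 5773 and 4280.5 at week 48 and rose by 1.47 ± 0.25 (adjusted p = 0.000206), and Gsta3, another, by 0.63 ± 0.13 (adjusted p = 0.00111). These transferases are close paralogs, so their probe sets may share signal. Without week 20 replicates 1 or 2 or week 48 replicate 1 the count was 2. In the retinoid list 2 of 16 rose and 2 fell, against 5.99% and 9.76% of all genes. Without week 20 replicate 2 both counts were 1. Rdh11, a retinal reductase that sterols also regulate, gave 637, 657, 756, 1910.5 and 2001 at week 20 and 4104, 2135, 3170.3, 4592 and 5161 at week 48. It rose by 1.80 ± 0.32 (adjusted p = 0.000433), while Rxrb, a retinoid X receptor, fell by 0.71 ± 0.17 (adjusted p = 0.00476). Dhrs3, which turns retinal into retinol, rose by 0.51 ± 0.15 (lost without week 20 replicate 2 and without the arrays that carried muscle or pancreas transcripts (adjusted p = 0.0526 to 0.0891)), and Rxra fell by 0.56 ± 0.18 (lost without week 20 replicates 2 or 3 or week 48 replicates 2 or 5, with median centring and without the arrays that carried muscle or pancreas transcripts (adjusted p = 0.0569 to 0.114)). Slc39a14, a zinc and iron importer, fell by 0.77 ± 0.17 (adjusted p = 0.00297), and this differed from its change of 0.40 ± 0.17 on peretinoin (difference -1.16 ± 0.24, adjusted p = 0.0286). Igfals, which holds IGF in the circulation, fell by 0.67 ± 0.14 (adjusted p = 0.00151).

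Transporters and chaperones gave further single calls. Abcb11, the bile salt export pump, rose by 1.01 ± 0.23 (adjusted p = 0.00284), and Hsd3b7, an enzyme of bile acid synthesis, by 0.80 ± 0.18 (adjusted p = 0.00332). In the bile acid list 2 of 22 rose and 0 fell, beside 5.99% and 9.76% of all genes. In the ER stress list 4 of 23 rose and 1 fell (5.99% and 9.76% of all genes), and in wild-type liver 9 rose and 0 fell (2.41% and 4.47% of all genes). The test of the difference from wild type called 1 of the 23, beside 0.275% of all genes. Hsp90b1, the ER form of the chaperone HSP90, rose by 0.55 ± 0.12 in transgenic liver (adjusted p = 0.00192) and by 0.56 ± 0.12 in wild-type liver (adjusted p = 0.00586). Manf, a secreted ER factor, rose by 1.04 ± 0.23 (adjusted p = 0.00268) and 1.04 ± 0.24 (adjusted p = 0.00982). The transgenic count was 2 without week 20 replicate 2 or week 48 replicate 5 and 7 without week 48 replicate 1. Among 12 male-biased genes 1 rose and 0 fell, beside 5.99% and 9.76% of all genes, or 4 rose without week 20 replicate 4 or 5. Hsd3b5, a steroid enzyme of male liver, gave 28.8, 12.5, 14, 6824 and 2441 at week 20 and 68.9, 266, 914, 81.6 and 723 at week 48. Its week 20 replicates 4 and 5 stood above every week 48 array and the other 3 below, and it did not pass (adjusted p = 0.906).

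The age change itself was then tested against that in wild-type liver. The difference passed for 36 genes (0.275%), 18 higher and 18 lower (0.137% each), and at an unadjusted p under 0.05 for 1723. Of the 36, 28 were also called for age in transgenic liver, beside 15.7% of all genes. Both tests use the same transgenic arrays, so that overlap is partly built in. With median centring, which moved the median difference of all genes from -0.02 to 0.19, 60 genes passed and 91.7% of them were higher. Leaving out single arrays gave 12 (without transgenic week 20 replicate 2) to 66 genes (without wild-type week 20 replicate 2). Tns1 gave 903, 1395, 487, 472 and 768 in wild type at week 20 and 673, 1142, 1236 and 912 at week 48, where it changed by 0.37 ± 0.25. The transgenic change was lower by 2.03 ± 0.35 (adjusted p = 0.00794). Rpa3 fell in wild type by 0.50 ± 0.12 (adjusted p = 0.0133), and its transgenic change was higher by 1.03 ± 0.17 (adjusted p = 0.00488). H2az2, a histone variant, rose by 0.30 ± 0.09 in transgenic liver and fell by 0.51 ± 0.09 in wild type, a difference of 0.81 ± 0.13 (adjusted p = 0.00488). The transgenic call of H2az2 was lost without week 20 replicate 1 and with averaged probe sets (adjusted p = 0.0534 to 0.0838). Eif3b, a translation initiation factor, fell by 0.68 ± 0.09 in transgenic liver and changed by 0.07 ± 0.10 (adjusted p = 0.73) in wild type (difference of the changes -0.76 ± 0.14, adjusted p = 0.00824). Zwint, a kinetochore protein, rose by 0.46 ± 0.10 against -0.38 ± 0.11 (difference 0.84 ± 0.15, adjusted p = 0.00824), but its 3 other probe sets above the filter gave -0.15, -0.32 and -0.18 in transgenic liver, and the transgenic call was lost with averaged probe sets (adjusted p = 0.938). Serpina7 changed by 0.06 ± 0.33 in wild type, and the difference was 2.18 ± 0.45 (adjusted p = 0.0243).

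Between the diets the age change differed for 89 genes (0.679%), 49 higher and 40 lower on the basal diet, and for 1780 at an unadjusted p under 0.05. Of the 89, 60 were called for age in basal transgenic liver, beside 15.7% of all genes. That overlap is also partly built in, as both tests use the same basal arrays. With median centring 48 passed and 22.9% of them were higher, against 55.1% of the 89. Leaving out single arrays gave 11 (without basal week 20 replicate 3) to 215 genes (without basal week 20 replicate 4). The Actb ratio differed most in the peretinoin week 20 arrays (1.70 to 3.31, against 1.62 to 1.74 in the basal ones), and its part in the differences between the diets was not tested. The tests against wild type and against peretinoin share the basal transgenic arrays. For Serpina7 the peretinoin signals were 11853, 13316, 17821, 10174 and 7992 at week 20 and 11789.9, 11101, 12264, 6881 and 6151 at week 48, a change of -0.35 ± 0.31 and a difference of 2.60 ± 0.43 (adjusted p = 0.006). 1810008I18Rik, a gene known here only by a clone name, gave 277, 381, 589.6, 962 and 743 at week 20 and 2586, 1731, 3905, 3442 and 3312 at week 48 on the basal diet, a rise of 2.39 ± 0.28 (adjusted p = 2.79e-06) against -0.21 ± 0.28 on peretinoin (difference 2.59 ± 0.39, adjusted p = 0.00263). Ripk4, a kinase of epithelia, fell by 0.92 ± 0.14 on the basal diet and changed by 0.20 ± 0.14 (adjusted p = 0.385) on peretinoin (difference of the changes -1.12 ± 0.20, adjusted p = 0.0135). Dcps, the scavenger of mRNA caps, rose by 0.36 ± 0.10 against -0.48 ± 0.10 (difference 0.83 ± 0.14, adjusted p = 0.006), with another probe set at -0.19 and its age call lost with averaged probe sets (adjusted p = 0.438). Rpa3 fell on peretinoin by 0.34 ± 0.12, a difference of 0.88 ± 0.16 (adjusted p = 0.0135).

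**Figure D5:**
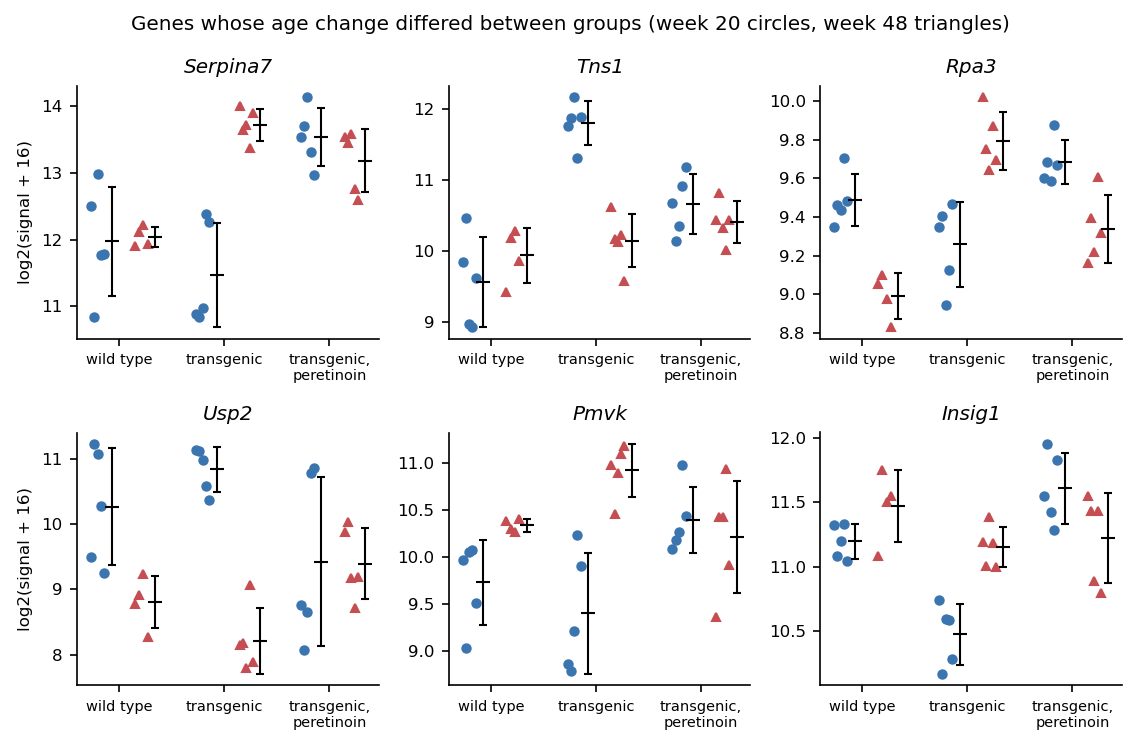
Genes whose age change differed in a test between groups, as log2(signal + 16) per array in wild-type, transgenic and peretinoin-fed transgenic liver (blue circles, week 20; red triangles, week 48; black bars, mean and SD; 5 arrays per group, 4 for wild type at week 48). Serpina7 and Pmvk rise and Tns1 and Usp2 fall between the ages in the basal transgenic groups, while in the peretinoin groups the ages overlap for each of these 4 genes.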

How the data were processed

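Whole-liver RNA of 34 samples was hybridised to arrays of 45101 probe sets. The deposited values are MAS5 signals, per the submitters' processing notes, an intensity on a linear scale that the authors' processing set to a trimmed mean of about 500 per array; the MAS5 version is not given in the sources used here. Control probe sets (64) were left out; 34945 of the rest had 1 gene symbol in the platform annotation, 932 several and 9160 none. Probe sets in the upper 60% by mean signal were kept and each of the 13099 genes was read from its brightest one, without changing the authors' values. The 7 groups were fitted together on log2(signal + 16) with limma 3.58.1 (lmFit, eBayes with trend; R 4.3.3), and p-values were adjusted over all genes by Benjamini-Hochberg. In data simulated for this comparison, 77.6% of 2-fold and 35.8% of 1.5-fold changes were called. The simulation changed few genes (67 by 1.5-fold, 67 by 2-fold and 66 by 4-fold) and drew noise separately for each gene. Many more genes were called in the real arrays, which also share differences across genes, so these shares do not give the power here.

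Named genes were the 12 largest rises and falls without overlap, the 4 members of smallest p of each list, a fixed panel, and the 5 of smallest p of each difference; further members were named where a list needed them. The members and lists were chosen with earlier results of these data known. Alternatives were other offsets, filters, scalings, probe set rules and fits, a replicate block (fitted to the compared arrays alone), and leaving out each array. Leaving out arrays with other tissue was chosen after seeing the data. No 2 arrays were duplicates (highest r 0.977). Promoter sequences came from RefSeq (GRCm38.p6).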

Additional observations from a re-analysis of the deposited data

Results flagged for a closer look

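Of 416 sets of 5 signals tested, over 148 genes and 60 lists at both ages, 26 had a sample standing apart from the other 4, 8 at week 20 and 18 at week 48; chance gives about 1 in 20. The number beside each is the gap to the nearest other sample as a share of the whole range. At week 20 it was replicate 5 for Gdap10 (0.772; signal 335, others 624 to 748), replicate 2 for Tns3 (0.81; signal 3125, others 3662 to 3801), replicate 5 for Rfc3 (0.721; signal 289, others 225 to 241), replicate 1 for Ugdh (0.737; signal 3973, others 5992 to 6937) and replicate 1 for Sdha (0.803; signal 9168, others 10008 to 10225). At week 48 it was replicate 1 for Timp1 (0.733; signal 126, others 177 to 199), replicate 4 for Cx3cr1 (0.726; signal 796, others 1026 to 1129), replicate 4 for Gdap10 (0.736; signal 44.2, others 146 to 216), replicate 1 for Zfp688 (0.746; signal 52.5, others 26.4 to 31.9), replicate 5 for Dgat2 (0.71; signal 4614, others 5282 to 5582), replicate 4 for Plin3 (0.816; signal 2046, others 1372 to 1477), replicate 5 for Acot1 (0.726; signal 170.5, others 585 to 918) and replicate 2 for Ski (0.863; signal 546, others 616 to 628). Over whole lists, as mean log2(signal + 16), week 20 had replicate 4 for the pericentral genes (0.712; 10.323, others 10.085 to 10.153), replicate 4 for the mesothelium markers (0.81; 7.917, others 6.790 to 7.004) and replicate 5 for the pancreatic acinar markers (0.935; 10.830, others 5.375 to 5.729). Week 48 had replicate 5 for the G1 cyclins (0.719; 9.411, others 9.150 to 9.223), replicate 1 for the retinoid genes (0.799; 10.284, others 9.804 to 9.901), replicate 1 for the growth factors (0.786; 9.468, others 9.288 to 9.326), replicate 1 for the B and plasma cell markers (0.759; 9.125, others 7.985 to 8.260), replicate 5 for the neutrophil markers (0.775; 10.582, others 7.870 to 8.480), replicate 3 for the mesothelium markers (0.756; 6.115, others 6.907 to 7.163), replicate 4 for the skeletal muscle markers (0.718; 13.393, others 5.532 to 7.748), replicate 4 for the pancreatic acinar markers (0.969; 11.142, others 5.571 to 5.743), replicate 4 for the adipocyte markers (0.779; 9.277, others 5.405 to 6.262) and replicate 5 for the erythroid markers (0.748; 7.738, others 8.175 to 8.322).

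The change with age differed between groups, in limma's test of the difference itself, for named genes as follows, in log2 units ± SE. Against wild-type liver, the transgenic change of these genes differed: 1810008I18Rik by 1.85 ± 0.41 (adjusted p = 0.0436), Eif3b by -0.76 ± 0.14 (adjusted p = 0.00824), Serpina7 by 2.18 ± 0.45 (adjusted p = 0.0243), Tns1 by -2.03 ± 0.35 (adjusted p = 0.00794), Rfc3 by 0.96 ± 0.20 (adjusted p = 0.0331), Rpa3 by 1.03 ± 0.17 (adjusted p = 0.00488), Zwint by 0.84 ± 0.15 (adjusted p = 0.00824) and H2az2 by 0.81 ± 0.13 (adjusted p = 0.00488). Against the peretinoin diet, the change on the basal diet differed: 1810008I18Rik by 2.59 ± 0.39 (adjusted p = 0.00263), Serpina7 by 2.60 ± 0.43 (adjusted p = 0.006), Tns1 by -1.41 ± 0.34 (adjusted p = 0.0423), Ripk4 by -1.12 ± 0.20 (adjusted p = 0.0135), Usp2 by -2.60 ± 0.60 (adjusted p = 0.0338), Pmvk by 1.70 ± 0.36 (adjusted p = 0.0286), Nrg4 by -2.65 ± 0.53 (adjusted p = 0.0205), Insig1 by 1.07 ± 0.20 (adjusted p = 0.0135), Sc5d by 0.92 ± 0.22 (adjusted p = 0.0455), Rpa3 by 0.88 ± 0.16 (adjusted p = 0.0135), Slc39a14 by -1.16 ± 0.24 (adjusted p = 0.0286), Cpt2 by -0.72 ± 0.16 (adjusted p = 0.0328), Dcps by 0.83 ± 0.14 (adjusted p = 0.006) and Derl1 by 1.18 ± 0.28 (adjusted p = 0.0423). Both sets use the same basal transgenic arrays. The age change of Derl1 on the basal diet was 0.57 (adjusted p = 0.0458), a call lost in 10 of 21 settings. Averaged probe sets gave 0.18 (adjusted p = 0.204).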

How the results depend on the processing

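The count of 2063 genes for week 48 against week 20 was between 1746 (median centring, and without arrays carrying other tissue) and 2556 (only the arrays compared), and that of changes of at least 2-fold, 299, between 200 (an offset of 64) and 349 (no filter). Leaving out 1 array gave 1501 to 2035 and 235 to 355. Of 132 named genes called, 75 kept the call in every setting run, 27 lost it in 1 to 4 and 30 in 5 or more. The difference from wild type, 36 genes, gave 20 with no filter, 60 with median centring, 57 with averaged probe sets and 15 without arrays carrying other tissue. Leaving out 1 array gave 12 (week 20 transgenic replicate 2) to 66 (week 20 wild-type replicate 2), and 11 other arrays also moved it by over 1.5 times. The difference between the diets, 89 genes, gave 48 with no filter, 136 with the upper 40% of probe sets, 48 with median centring, 54 with averaged probe sets, 27 with only the arrays compared, 19 with a replicate block and 135 without arrays carrying other tissue. Leaving out 1 array gave 11 (week 20 basal replicate 3) to 215 (week 20 basal replicate 4), and 14 other arrays also moved it by over 1.5 times. The wild-type count of 901 was 302 with only the arrays compared, 155 with a replicate block and 557 without arrays carrying other tissue; leaving out 1 array gave 518 to 854, with 581 without week 20 replicate 2, and 556, 528 and 518 without week 48 replicates 2, 3 and 4. The median of the Wnt core list turned to 0.019 with no filter, that of the glycolysis list to -0.040 with averaged probe sets, and Sdha to -0.0017 with averaged probe sets; the cause was not tested. With median centring the medians of 11 of 60 lists changed sign, from values no lower than -0.12. The labels do not say that replicate numbers pair the samples. The correlation of same-numbered deviations was 0.16, 0.13, 0.07, -0.01 and 0.02. Week 20 replicates 1 and 2 matched their own number best at week 48, and the others did not. The replicate block was fitted to the compared arrays alone. It gave 2498 calls for age, beside 2556 for those arrays without the block. Depth has no equivalent here: dim signals near the offset of 16 limit the size of a change.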
